A study of Homo sapiens and Mus musculus with 10 samples.

Results

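Translation initiation and elongation factors are the proteins that load ribosomes onto messenger RNA and move them along it. Their genes were taken as every listed symbol that begins with EIF1 to EIF6, EEF1 or EEF2 in capitals or in mouse spelling, leaving out EIF4EBP1 and symbols that end in P with or without digits or in -PS, which removes pseudogenes. Read literally, that rule also left out EIF4EBP2 and EIF4EBP3. It gave 70 of 27800 gene symbols in the human table and 65 of 24493 in the mouse table, 135 entries in all, and 60 symbols occur in both. RNA was sequenced from myeloid cells to ask how inhibiting KAT6A, a histone acetyltransferase, alters transcription. The compound tested, WM-1119, inhibits that enzyme. MOLM-13, a human acute myeloid leukaemia cell line, gave 3 libraries after 4 days in 4 µM WM-1119 and 3 DMSO libraries. ER-Hoxa9, a mouse line whose name joins the estrogen receptor to HOXA9, gave 2 libraries after 4 days in 2 µM WM-1119 and 2 DMSO libraries. All 4 ER-Hoxa9 libraries came from cells grown with 0.5 µM β-estradiol and medium conditioned with stem cell factor, so the DMSO cells received these too. The labels give a dose and a time for WM-1119 alone and do not say whether the mouse line is 1 clone.

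As background, initiation begins when eIF2 brings the initiator tRNA to the small ribosomal subunit, which carries eIF1, eIF1A, eIF3 and eIF5. The eIF4 proteins bind the cap of the mRNA and unwind it, eIF5B joins the large subunit, eEF1A then delivers each aminoacyl-tRNA and eEF2 moves the ribosome forward. Stress kinases that phosphorylate the α subunit of eIF2 lower initiation, because phosphorylated eIF2 blocks its exchange factor eIF2B. Many elongation factor mRNAs, like those of ribosomal proteins, begin with a cytosine followed by a stretch of pyrimidines, the 5′ terminal oligopyrimidine (TOP) motif, through which mTOR and LARP1 control their translation and stability as a group.

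The starts of several human members are shown because EEF1A1 and EEF2, the 2 most abundant members, carry such a run, as do several members described in the results. The windows are RefSeq sequences on GRCh38.p14, read 5′ to 3′ on the gene's strand, with 20 bases before the annotated start and 10 bases from it. Capitals mark an unbroken run of C or T that begins with C at the start itself and has at least 5 bases, so the motif searched is a C followed by at least 4 bases that are each C or T, at that position and on that strand alone.

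EEF1A1: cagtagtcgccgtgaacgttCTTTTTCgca
EEF2: tgagtgttgacgtcagcgttCTCTTCCgcc
EEF1B2: attttccggtctcttcgggtCCTTTTTCCT
EIF2S3: cagccggggtgatttccttcCTCTTTTggc
EIF3D: ccgctgcgcgcgcatgtttcCTCTTTTCCT
EIF3M: gcgtcgcgcggcccagttccCTTTTCCggt
EIF4B: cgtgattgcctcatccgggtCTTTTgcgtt
EEF1G: ccttctctcccgggcggcttactttgcggc
EIF3C: tcctcctctgtcccacccccgtggcaggca

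The EEF1A1 window is chr6:73521023-73521052 on the minus strand, that of EEF2 is chr19:3985454-3985483 on the minus strand, and that of EIF3M is chr11:32583811-32583840 on the plus strand. The EEF1B2 run continues past the window to 16 bases, and a second listed start of EEF1B2 (chr2:206159589-206159618) holds no run. EEF1G and EIF3C are given for comparison, and their windows hold no such run at the annotated start. Of 56 members in the RefSeq promoter table, 12 (21.4%) had the run at a listed start, against 4.07% of its 35116 entries and 5.14% of its 27305 symbols. The 12 were the 7 shown with capitals and EIF2A, EIF2D, EIF3F, EIF3K and EIF4A2. The 7 shown all had a negative log2 difference (WM-1119 minus DMSO) in MOLM-13 and do not represent the 12. Of those not shown, EIF2A was negative at -0.11, and EIF2D (0.02), EIF3F (0.03), EIF3K (0.20) and EIF4A2 (0.07) were positive. Members without an entry in that table were EEF1A2, EEF1AKMT1, EEF1AKMT3, EEF1D, EEF2KMT, EIF2AK1, EIF2S2, EIF3A, EIF3CL, EIF3E, EIF3G, EIF3H, EIF3J-AS1 and EIF3L.

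Levels are TPM, length-scaled estimates of transcript abundance that sum to 1000000 in each library, so a value is a share and the number of reads behind it is unknown. The labels do not say whether libraries came from separate cultures, so each p-value reflects library-to-library spread alone, and that spread may be technical. In bulk RNA, fewer cells of a type and less RNA per cell cannot be told apart. Both MOLM-13 libraries with number 3 stood apart: HBA1, a globin gene, was at 158 TPM in the WM-1119 library and 95.2 TPM in the DMSO library of that number and at no more than 0.439 TPM in the other 4. Ribosomal protein genes made up 33.9% and 39.8% of those 2 libraries and 25.7% to 28.4% of the others. Of 10 myeloid markers 9 reached 1 TPM in each line, all but KIT in MOLM-13 and all but Csf1r in ER-Hoxa9. The defining T-cell, B-cell, fibroblast and epithelial genes CD3E, MS4A1, COL1A1 and EPCAM and their mouse counterparts stayed under 1 TPM in all 10 libraries, but other markers of the same lists were present. NKG7, of T and NK cells, averaged 131 TPM in WM-1119 and 109.7 TPM in DMSO libraries of MOLM-13, the epithelial KRT18 averaged 9.35 TPM in WM-1119 and 9.77 TPM in DMSO libraries of MOLM-13, and the fibroblast gene Pdgfrb averaged 15.2 TPM in WM-1119 and 15.9 TPM in DMSO libraries of ER-Hoxa9. Single markers of other cells differed between the treatment means: CD3D, a T-cell gene, averaged 4.74 TPM in WM-1119 and 11.96 TPM in DMSO libraries of MOLM-13, and Cd79a, a B-cell gene, 9.92 TPM in WM-1119 and 2.47 TPM in DMSO libraries of ER-Hoxa9, and their part in the results was not tested. KAT6A itself was at 21.2, 20.1 and 13.9 TPM in WM-1119 libraries and 22.8, 18.7 and 13.6 TPM in DMSO libraries of MOLM-13, which checks no label, because the drug acts on the protein.

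No translation factor passed the test in either line. With limma on log2(TPM + 1) and Benjamini-Hochberg adjustment over every gene averaging 1 TPM or more, 0 of 62 tested members in MOLM-13 and 0 of 61 in ER-Hoxa9 had an adjusted p under 0.05. The background was almost as empty, with 0.00804% of 12436 genes called in MOLM-13 and 0.0352% of 11362 in ER-Hoxa9 (0.0176% in each direction), so these counts do not set the members apart. At an unadjusted p under 0.05, 0 members were higher and 0 lower in MOLM-13, where 2.08% of all genes were higher and 0.965% lower. In ER-Hoxa9 2 members, Eef1akmt1 and Eif2ak2, were higher and 0 lower at that threshold, against 11.6% of all genes higher and 1.13% lower. After scaling by median of ratios, 3 members were lower and 0 higher in MOLM-13, against 1.64% and 2.24% of all genes, and 11 were lower and 1 higher in ER-Hoxa9, against 3.99% and 6.15%, with 0 calls after adjustment in either line. The differences below are given with their values for that reason, and none is a call. Standard errors and p-values of single members are from the fit to unscaled values without library numbers, unless a block is named.

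The members sat slightly below the middle of all genes in both lines. In MOLM-13 their median log2 difference, WM-1119 minus DMSO, was -0.03, against 0.05 over all genes tested, and 33 of 62 were negative (53.2%, against 38.5% of all genes). In ER-Hoxa9 the median was -0.01, against 0.12 over all genes, and 34 of 61 were negative (55.7%, against 28.1%). Scaling by median of ratios moved the all-gene median in ER-Hoxa9 by more than 0.1, to -0.01, and the member median to -0.16, and 49 of 61 members (80.3%) were then negative, against 52.6% of all genes. In MOLM-13 the same scaling gave medians of -0.09 for members and -0.01 for all genes, with 51 of 62 members (82.3%) negative, against 52.4%. The member median therefore lay below the all-gene median by 0.08 and 0.13 log2 units as deposited, in MOLM-13 and ER-Hoxa9 in that order. After scaling the gap was 0.08 and 0.14. Scaling divides all genes of a library by the same factor, so it shifts their log2 differences almost equally. The gap could therefore hardly change, and the scaled values are no test of it. The sign of the member median itself changed when some single libraries were left out. In MOLM-13 it was 0.06 without the third WM-1119 library and 0.09 without the first DMSO library. In ER-Hoxa9 it was 0.06 without the second WM-1119 library and 0.02 without the first DMSO library.

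**Figure D1:**
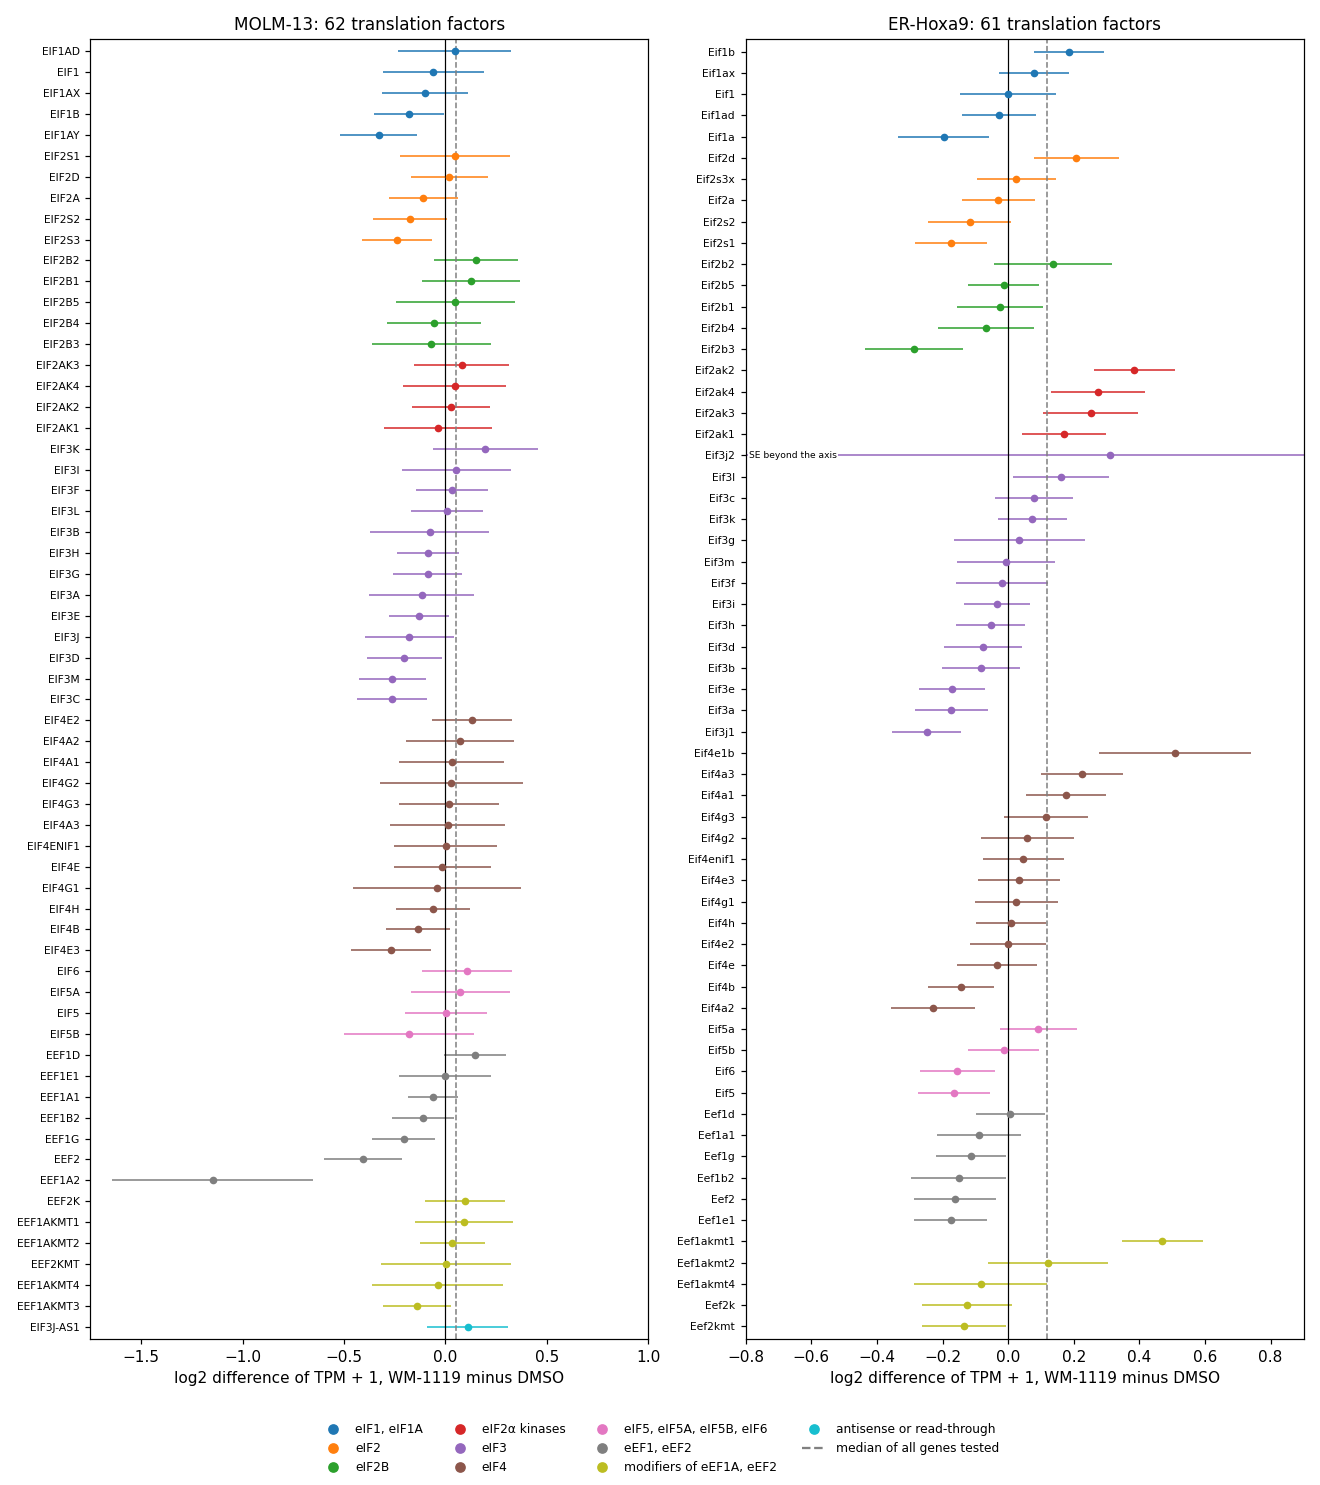
Log2 differences (WM-1119 minus DMSO, log2 of TPM + 1) for the 62 MOLM-13 and 61 ER-Hoxa9 members averaging 1 TPM or more, coloured by role. Standard errors are from the fit without library numbers, and the median of all genes tested is a dashed line. Most MOLM-13 points lie within 0.3 of 0, EEF1A2 at -1.15 and EEF2 at -0.40 lie farthest to the left, and the 4 eIF2α kinases of ER-Hoxa9 lie to the right of 0; the standard error of Eif3j2 runs beyond the axis.

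Summed over all members, the factors took 2.63%, 2.56% and 2.35% of the WM-1119 libraries and 2.60%, 2.84% and 2.68% of the DMSO libraries of MOLM-13. The log2 ratio was -0.11, with a two-sided exact permutation p of 0.2, where 0.1 is the smallest that 3 against 3 allows. In ER-Hoxa9 the shares were 2.36% and 2.22% in WM-1119 libraries and 2.44% and 2.32% in DMSO libraries. The log2 ratio there was -0.06, with a two-sided exact permutation p of 0.667, where 0.333 is the smallest possible. In each line the treatments overlapped. EEF1A1 alone made up 35.4% to 39.2% of the sum in MOLM-13 and 40.1% to 41.7% in ER-Hoxa9.

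Levels spanned a wide range in both lines. EEF1A1 and EEF2 stood at the top in each line, and the eIF2α kinases PKR, PERK and GCN2 (EIF2AK2, EIF2AK3 and EIF2AK4) were at 3.05 to 18.7 TPM over the MOLM-13 libraries, and Eif2ak2, Eif2ak3 and Eif2ak4 at 7.61 to 15.76 TPM over the ER-Hoxa9 libraries. Under 1 TPM on average, and so not tested, were EIF3CL, EIF4E1B, EIF5A2, EIF5AL1, EIF1AX-AS1, EIF1B-AS1, EEF1AKMT4-ECE2 and EEF1E1-BLOC1S5 in MOLM-13, and Eef1a2, Eif2s3y, Eif5a2 and Eef1akmt4-ece2 in ER-Hoxa9. Eif2s3y, the Y-linked copy of eIF2γ, was listed at 0 in all 4 mouse libraries.

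**Figure D2:**
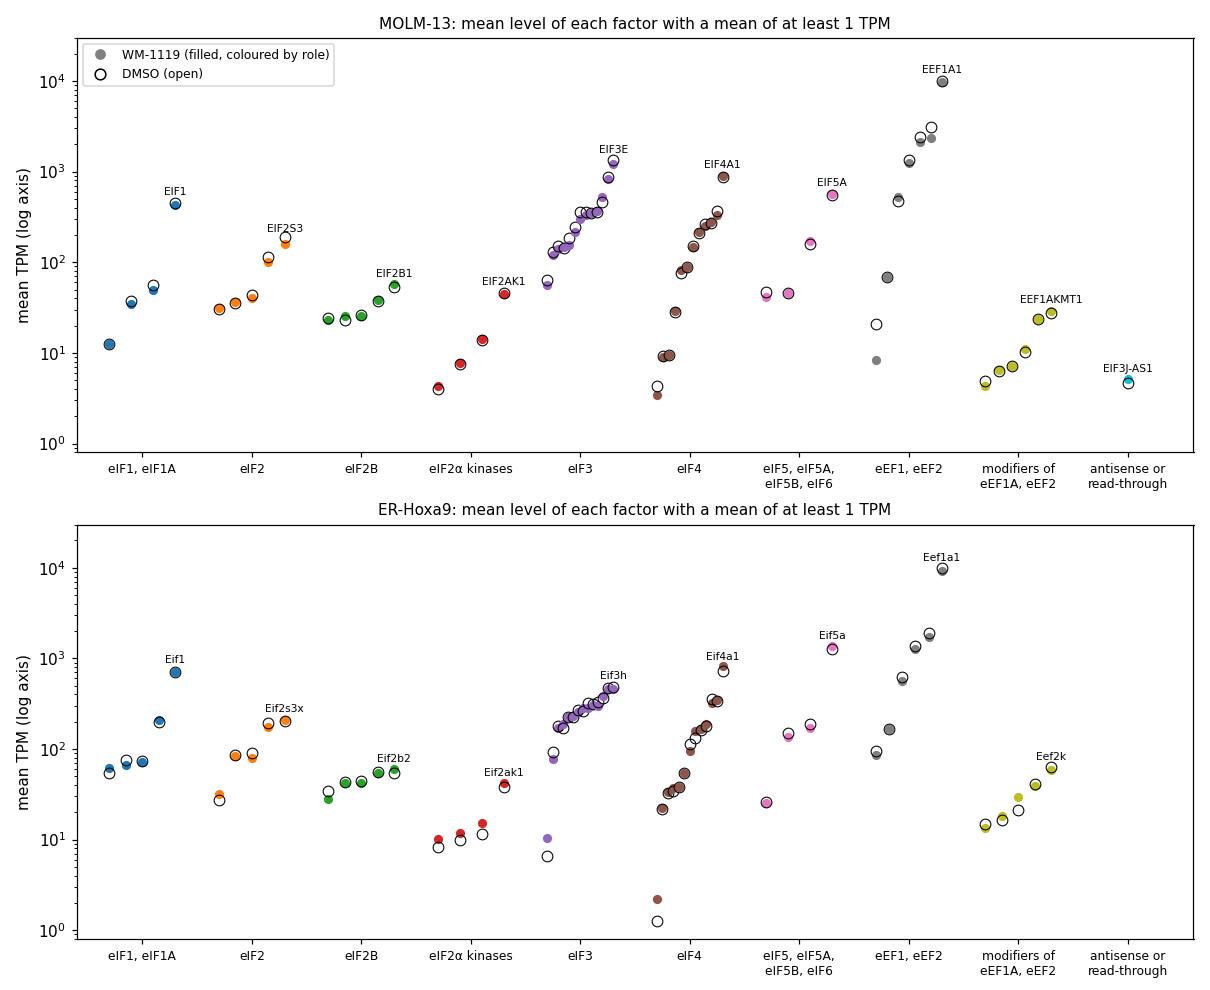
Mean TPM on a log axis of each member averaging 1 TPM or more, by role, for MOLM-13 above and ER-Hoxa9 below, with filled points for WM-1119 and open points for DMSO; EIF1AY is not drawn. EEF1A1 and Eef1a1 are the highest points, and filled and open points coincide for most members, with EEF1A2 of MOLM-13 the widest apart.

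Among the MOLM-13 members grouped as eEF1 and eEF2, 6 of 7 log2 differences were negative, also after scaling, with a median of -0.11. Grouping by symbol includes EEF1E1, which is not itself an elongation factor and was among the negative ones at -0.001. EEF2, the translocase, had 2094, 2527 and 2385 TPM in WM-1119 libraries and 2407, 3614 and 3366 TPM in DMSO libraries. Every WM-1119 library lay below the DMSO library of its number, but the first DMSO library lay within the WM-1119 range. The means were 2336 ± 221 TPM in WM-1119 and 3129 ± 637 TPM in DMSO (SD, n = 3 each), and the log2 difference was -0.40 ± 0.19 (SE), with a limma adjusted p of 1.0.

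EEF1A2, a paralogue of EEF1A1 best known from muscle and neurons (20:63488012-63499322, minus strand, GRCh38, GENCODE release 29), had the largest difference of the 62. It had 4.65, 7.77 and 12.6 TPM in WM-1119 libraries and 8.64, 22.2 and 31.8 TPM in DMSO libraries. The number-1 library was the lowest and the number-3 library the highest under each treatment, so the treatments overlapped while all 3 same-numbered pairs were lower in WM-1119. The log2 difference was -1.15 ± 0.50 (SE), with an unadjusted limma p of 0.0521 and an adjusted p of 1.0. It ranged from -1.65 to -0.77 when single libraries were left out.

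The rest of the eEF1 family differed little. EEF1G, the γ subunit of the exchange complex of eEF1A, had 2220, 2294 and 1825 TPM in WM-1119 libraries and 2339, 2619 and 2325 TPM in DMSO libraries, a log2 difference of -0.21 ± 0.15 (SE). All 3 WM-1119 values lay below the lowest DMSO value. EEF1D, the δ subunit, was the member that went the other way, with 538, 515 and 525 TPM in WM-1119 libraries and 443, 492 and 492 TPM in DMSO libraries, a log2 difference of 0.15 ± 0.15 (SE). EEF1D was the single member of 62 (1.61%) whose WM-1119 libraries all lay above its DMSO libraries, against 4.54% of all genes, while 3 members (4.84%), EEF1G, EIF3C and EIF3M, lay wholly below, against 2.43%. EEF1A1, the main tRNA carrier, had 9874, 10034 and 9063 TPM in WM-1119 libraries and 9184, 10783 and 10309 TPM in DMSO libraries, a log2 difference of -0.06 ± 0.12 (SE), and its libraries overlapped. EEF1A1 has many processed pseudogenes, so the assignment of its reads is uncertain.

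In eIF3, the scaffold that holds the small subunit, 9 of 13 tested subunits of MOLM-13 were negative, and 12 after scaling. EIF3M had 169, 145 and 147 TPM in WM-1119 libraries and 195, 178 and 181 TPM in DMSO libraries, a log2 difference of -0.26 ± 0.16 (SE). EIF3C had 336, 304 and 267 TPM in WM-1119 libraries and 364, 387 and 336 TPM in DMSO libraries, also -0.26 ± 0.17 (SE). Neither gene's treatments overlapped. EIF3C shares reads with the near-identical EIF3CL, and the sum of both differed by -0.27.

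Other eIF3 subunits of MOLM-13 overlapped and had differences of both signs. EIF3D, a subunit that can itself bind caps, had 241, 226 and 182 TPM in WM-1119 libraries and 260, 258 and 225 TPM in DMSO libraries, with overlap. EIF3E, the most abundant subunit, had 1233, 1152 and 1272 TPM in WM-1119 libraries and 1231, 1340 and 1438 TPM in DMSO libraries, a log2 difference of -0.13 ± 0.15 (SE). EIF3K, a peripheral subunit, was higher in each same-numbered pair, with 627, 571 and 388 TPM in WM-1119 libraries and 539, 494 and 346 TPM in DMSO libraries. Its log2 difference was 0.20 ± 0.26 (SE), and the 2 number-3 libraries were its lowest.

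**Figure D3:**
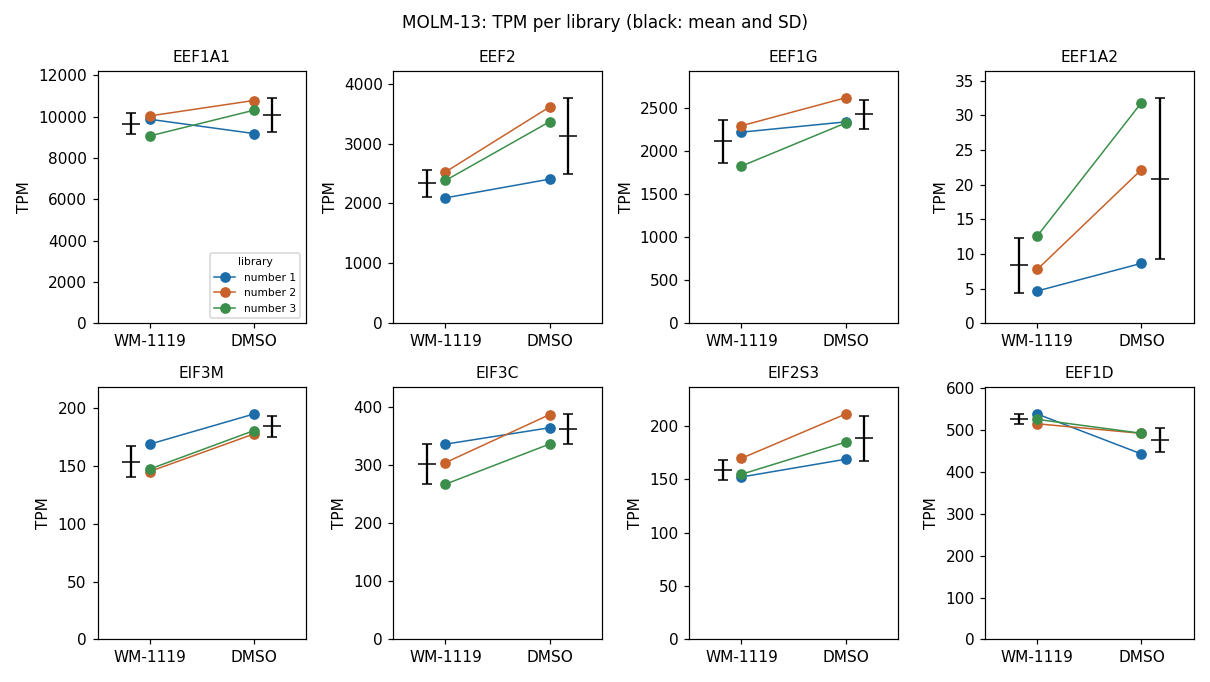
TPM of 8 members in each MOLM-13 library, WM-1119 on the left and DMSO on the right, with lines joining libraries of the same number and black bars for mean and SD (n = 3 each). The lines of EEF2, EEF1G, EEF1A2, EIF3M, EIF3C and EIF2S3 all climb towards DMSO, those of EEF1D all descend, and those of EEF1A1 cross.

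Within eIF2, the carrier of the initiator tRNA, EIF2S3, its γ subunit, had 152, 170 and 155 TPM in WM-1119 libraries and 169, 211 and 185 TPM in DMSO libraries. The second WM-1119 library exceeded the first DMSO library by little, and the log2 difference was -0.24 ± 0.17 (SE). EIF2S1, the phosphorylated α subunit, had 39.1, 28.6 and 26.0 TPM in WM-1119 libraries and 42.5, 24.3 and 25.6 TPM in DMSO libraries, a difference of 0.05 with both number-1 libraries highest. Of the 5 members grouped under eIF2 by symbol, 3 were negative as deposited and 5 after scaling. They were EIF2S1, EIF2S2 and EIF2S3, and EIF2A and EIF2D, which are not subunits of eIF2.

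The MOLM-13 eIF2α kinases and eIF2B were close to 0. The kinases EIF2AK1 (HRI, sensitive to haem), EIF2AK2 (PKR, to double-stranded RNA), EIF2AK3 (PERK, to endoplasmic reticulum stress) and EIF2AK4 (GCN2, to uncharged tRNA) differed by -0.04 to 0.08 log2 units, and all overlapped. EIF2AK1, the most abundant, had 55.4, 43.9 and 34.1 TPM in WM-1119 libraries and 56.6, 47.5 and 33.3 TPM in DMSO libraries. EIF2B1, the α subunit of eIF2B, had 71.7, 54.9 and 47.1 TPM in WM-1119 libraries and 67.2, 47.8 and 44.4 TPM in DMSO libraries, a log2 difference of 0.12 ± 0.24 (SE), and the 5 subunits ranged from -0.07 to 0.15.

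Start-codon factors likewise overlapped. EIF1, which guards start-codon choice, had 362, 394 and 522 TPM in WM-1119 libraries and 324, 489 and 532 TPM in DMSO libraries, a log2 difference of -0.06 ± 0.25 (SE). Its paralogue EIF1B had 47.4, 48.4 and 52.3 TPM in WM-1119 libraries and 61.5, 49.4 and 57.6 TPM in DMSO libraries, a difference of -0.18 ± 0.17 (SE). EIF1AY, which is near-identical to EIF1AX and shares its reads, differed by -0.33 ± 0.19 (SE) and EIF1AX by -0.10 ± 0.21 (SE).

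Of the 12 tested eIF4 members of MOLM-13, 5 were negative as deposited and 11 after scaling, with the median at 0.01 and -0.06. EIF4A1, the helicase, had 1127, 841 and 691 TPM in WM-1119 libraries and 1100, 842 and 663 TPM in DMSO libraries. EIF4G1, the scaffold, had 201, 152 and 83.8 TPM in WM-1119 libraries and 221, 138 and 92.0 TPM in DMSO libraries, and EIF4E, the cap-binding protein, had 11.2, 7.97 and 7.95 TPM in WM-1119 libraries and 12.3, 8.25 and 7.20 TPM in DMSO libraries. In all 3 genes the libraries ran in the order of their numbers under both treatments, and number 1 lay well above the rest.

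EIF4A2, the second helicase, had 236, 163 and 257 TPM in WM-1119 libraries and 210, 155 and 261 TPM in DMSO libraries, and EIF4E3, a cap-binding relative, had 3.50, 3.14 and 3.54 TPM in WM-1119 libraries and 4.86, 4.89 and 3.28 TPM in DMSO libraries. EIF4E3 differed by -0.27 ± 0.20 (SE), and its number-3 pair was the exception, with WM-1119 higher. EIF4B, a helicase cofactor and TOP mRNA, differed by -0.14 ± 0.16 (SE).

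The late factors of MOLM-13 had differences of both signs. EIF5A, the hypusine-bearing factor that helps ribosomes past stalling peptides, had 677, 535 and 490 TPM in WM-1119 libraries and 731, 471 and 443 TPM in DMSO libraries, and EIF6, which keeps the large subunit free, had 203, 155 and 153 TPM in WM-1119 libraries and 199, 142 and 137 TPM in DMSO libraries. Their log2 differences were 0.07 ± 0.24 and 0.11 ± 0.22 (SE), with overlap. EIF5B, which joins the subunits, had 55.3, 39.3 and 29.5 TPM in WM-1119 libraries and 66.4, 42.02 and 33.7 TPM in DMSO libraries, a difference of -0.18 ± 0.32 (SE) that was negative in all 3 pairs, with overlap. The 6 modifiers of eEF1A and eEF2 ranged from -0.14 to 0.10, among them EEF1AKMT1, a lysine methyltransferase of eEF1A, at 0.09 ± 0.24 (SE). EIF3J-AS1, named as an antisense transcript, was at 3.994 to 6.197 TPM over all libraries and differed by 0.11 ± 0.20 (SE). Whether it overlaps EIF3J was not checked.

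In MOLM-13 the spread between library numbers exceeded the treatment difference for most members. The range between the means of the 3 numbers was the larger in 55 of 62 members, and over members the median range was 0.46 and the median absolute treatment difference 0.08 log2 units. A range over 3 means is wider in expectation than a single difference, so this count is no test of the numbers. Both number-1 libraries were the highest of their treatment in 35 members. Their size factors were also the highest of each treatment, at 1.14 in WM-1119 and 1.09 in DMSO. The shares over all genes were not taken for these counts. Same-numbered libraries deviated together across all genes, so the numbers were taken to pair them, and 18 of 62 members (29.03%) were lower in all 3 pairs, against 14.4% of all genes, while 9 (14.5%) were higher in all 3, against 28.6%.

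The standard errors given above for single MOLM-13 members ignore these pairs. With the number as a block in the fit they were smaller, at 0.14 for EEF1A2, 0.09 for EEF2 and 0.06 for EIF3K. In that blocked fit 0 members passed the adjusted threshold and the background was 0% of all genes. At an unadjusted p under 0.05 the blocked fit had 9 members lower (14.5%, against 4.91% of all genes) and 1 higher (1.61%, against 13.2%). The 9 were EEF1A2, EEF2, EIF1AY, EIF3M, EIF2S3, EIF3C, EIF3D, EIF3J and EIF5B, and the 1 was EIF3K. The smallest blocked limma adjusted p was 0.112, for EEF1A2, followed by 0.173 for EEF2, EIF1AY and EIF3M. With median-of-ratios scaling, added after the data were seen, the blocked fit had 16 members lower, against 9.23% of all genes, and 0 higher, against 8.82%. Without the number-3 pair 4 members, EEF1A2, EIF1AY, EIF3M and EIF4E3, were lower at an unadjusted p under 0.05, against 2.76% of all genes, and 0 were higher, against 5.45%. There EEF1A2 differed by -1.09, EEF2 by -0.36 and EIF3M by -0.25, close to their values over 3 pairs. Other members shifted. EEF1G went from -0.21 to -0.13, EEF1B2 from -0.11 to -0.04 and EEF1A1 from -0.06 to 0.00, while EIF4E3 went from -0.27 to -0.44. The unadjusted blocked limma p of EEF2 was 0.0715, against 0.00804 over 3 pairs.

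In ER-Hoxa9 the 4 eIF2α kinases were all higher in both WM-1119 libraries than in both DMSO libraries. Non-overlap upwards was frequent here, at 40.3% of all genes and 11 of 61 members (18.03%), so it does not set the kinases apart. Eif2ak2 (PKR) had 15.76 and 14.86 TPM in WM-1119 libraries and 11.01 and 11.98 TPM in DMSO libraries, a log2 difference of 0.38 ± 0.12 (SE) with an unadjusted limma p of 0.0258 and an adjusted p of 0.346. Eif2ak4 (GCN2) had 10.4 and 10.1 TPM in WM-1119 libraries and 7.61 and 9.07 TPM in DMSO libraries, a difference of 0.27 ± 0.14 (SE). Eif2ak3 (PERK) had 12.7 and 11.1 TPM in WM-1119 libraries and 9.16 and 10.5 TPM in DMSO libraries, a difference of 0.25 ± 0.14 (SE).

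Eif2ak1 (HRI) had 43.5 and 41.9 TPM in WM-1119 libraries and 34.8 and 41.1 TPM in DMSO libraries, a difference of 0.17 ± 0.13 (SE), and the second libraries of each treatment were almost level. All 4 kinases stayed positive after scaling, at 0.03 for Eif2ak1 and 0.25 for Eif2ak2. The same 4 genes in MOLM-13 lay between -0.04 and 0.08. The tables were normalized separately, so no test between the lines was made.

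Other ER-Hoxa9 members with low p-values included Eef1akmt1, which methylates eEF1A, with 30.5 and 28.7 TPM in WM-1119 libraries and 22.4 and 19.8 TPM in DMSO libraries. Its log2 difference of 0.47 ± 0.12 (SE) had the smallest member p, 0.0116 unadjusted and 0.312 adjusted (limma). Eif4e1b, an oocyte-type relative of the cap-binding protein, was low, with 2.00 and 2.43 TPM in WM-1119 libraries and 1.01 and 1.53 TPM in DMSO libraries, a difference of 0.51 ± 0.23 (SE). Eif2b3, the γ subunit of eIF2B, had 30.2 and 25.4 TPM in WM-1119 libraries and 36.9 and 31.3 TPM in DMSO libraries, a difference of -0.29 ± 0.15 (SE) without overlap. Of all genes in ER-Hoxa9, 7.94% likewise lay wholly below DMSO.

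Eif3j1, a loosely bound eIF3 subunit, had 76.5 and 80.3 TPM in WM-1119 libraries and 91.1 and 95.6 TPM in DMSO libraries, a difference of -0.25 ± 0.10 (SE) without overlap. Its near-identical copy Eif3j2 was at 20.8 TPM in the first WM-1119 library and 13.2 TPM in the first DMSO library and listed at 0 in both second libraries. The sum of the copies was 97.3 and 80.3 TPM in WM-1119 libraries and 104 and 95.6 TPM in DMSO libraries, which overlap. Their split by library number is a reason to read Eif3j1 with its copy, and the summed difference was -0.17.

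**Figure D4:**
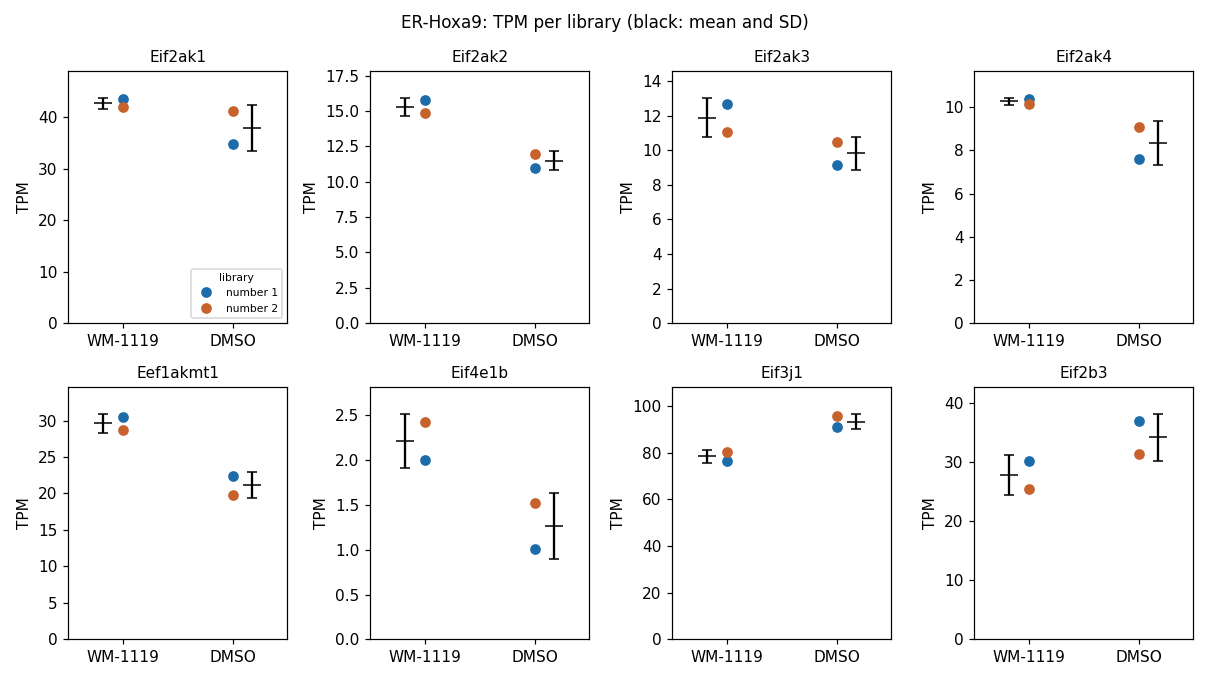
TPM of 8 members in each ER-Hoxa9 library, WM-1119 on the left and DMSO on the right, coloured by library number, with black bars for mean and SD (n = 2 each). WM-1119 points lie above DMSO points for the 4 eIF2α kinases, Eef1akmt1 and Eif4e1b and below them for Eif3j1 and Eif2b3.

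Of the 6 tested mouse members grouped as eEF1 and eEF2, 5 were negative as deposited and 6 after scaling. In 4 of them WM-1119 lay wholly below DMSO, as in 16 of all 61 members (26.2%), against 7.94% of all genes. Eef1e1, not itself an elongation factor, is counted among the 5 and the 4, at -0.18. Eef1a1 had 9447 and 9156 TPM in WM-1119 libraries and 10122 and 9666 TPM in DMSO libraries, a log2 difference of -0.09 ± 0.13 (SE). Eef2 had 1799 and 1634 TPM in WM-1119 libraries and 2022 and 1821 TPM in DMSO libraries, a difference of -0.16 ± 0.13 (SE). Eef1a2, which had the largest difference in MOLM-13, was at no more than 0.0663 TPM in any mouse library.

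The eIF4A helicases of ER-Hoxa9 had differences of both signs. Eif4a1 had 868 and 761 TPM in WM-1119 libraries and 743 and 695 TPM in DMSO libraries, a difference of 0.18 ± 0.12 (SE), and Eif4a3, a helicase of the exon junction complex, had 170 and 144 TPM in WM-1119 libraries and 137 and 131 TPM in DMSO libraries, a difference of 0.22 ± 0.13 (SE). Eif4a2 lay on the other side, with 88.8 and 104 TPM in WM-1119 libraries and 108 and 118 TPM in DMSO libraries, a difference of -0.23 ± 0.13 (SE). All 3 were without overlap and kept their sign after scaling, Eif4a1 at 0.03. Of all genes in this line, 40.3% lay wholly above DMSO, as Eif4a1 and Eif4a3 did, and 7.94% wholly below, as Eif4a2 did. Eif4e at 35.0 to 40.3 TPM and Eif4g1 at 149 to 174 TPM overlapped.

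The remaining ER-Hoxa9 factors gave small differences. Eif1b had 63.4 and 59.7 TPM in WM-1119 libraries and 53.6 and 54.4 TPM in DMSO libraries, a difference of 0.19 ± 0.11 (SE), while Eif1 differed by less than 0.01. Eif2s1 had 83.9 and 76.9 TPM in WM-1119 libraries and 92.5 and 89.1 TPM in DMSO libraries, a difference of -0.17 ± 0.11 (SE), and Eif2s3x, the X-linked γ subunit, differed by 0.03. Eif6 had 143 and 129 TPM in WM-1119 libraries and 157 and 146 TPM in DMSO libraries, a difference of -0.15 ± 0.11 (SE).

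Eif5a had 1389 and 1328 TPM in WM-1119 libraries and 1341 and 1212 TPM in DMSO libraries, a difference of 0.09 ± 0.12 (SE) with overlap. Eif2b2, Eif3h and Eef2k, the kinase of eEF2, differed by 0.14, -0.05 and -0.13, also with overlap. Several measures of the ER-Hoxa9 libraries moved with the treatment. Ribosomal protein genes took 28.8% and 27.7% of WM-1119 libraries and 34.0% and 29.9% of DMSO libraries, and the 10 myeloid markers summed to 3286 to 3329 TPM in WM-1119 and 1379 to 2692 TPM in DMSO. The median-of-ratios size factor was 1.07 and 1.03 in WM-1119 libraries and 0.934 and 0.967 in DMSO libraries, and 11389 and 11446 genes reached 1 TPM in WM-1119 libraries, against 11042 and 11181 in DMSO libraries. Their part in the member differences was not tested.

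Genes of the same TOP class can be set beside the members. Of 9 factors known as TOP mRNAs (EEF1A1, EEF1B2, EEF1D, EEF1G, EEF2, EIF3E, EIF3F, EIF3H and EIF4B), 7 were negative in MOLM-13 with a median of -0.11, and 8 were negative in ER-Hoxa9 with a median of -0.11. After scaling the counts were 8 and 9, where 52.4% of all genes were negative in MOLM-13 and 52.6% in ER-Hoxa9. Cytosolic ribosomal protein genes were negative in 74 of 83 in MOLM-13, with a median of -0.13, and in 77 of 81 in ER-Hoxa9, with a median of -0.17. As deposited, 38.5% of all genes were negative in MOLM-13 and 28.1% in ER-Hoxa9. These lists do not cover the whole TOP class, and no test of them was made.

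Grouped by the letters at the annotated start, the 12 human members with the C-first run had a median log2 difference of -0.11 in MOLM-13, with 8 negative, and the 37 tested members without it a median of 0.00, with 17 negative. After scaling, 11 of the 12 were negative with a median of -0.18, and 30 of the 37 with a median of -0.06. The groups also differ in level, with median TPM of 291 and 44.4. EEF2, EIF3M, EIF2S3 and EIF3D hold the run and lie at the low end, and EIF3K and EIF4A2 hold it and lie above 0. EEF1G and EIF3C lie low without a run in their windows. EEF1G is known as a TOP mRNA, and EEF1D, EIF3E and EIF3H, also known as such, have no listed start. The groups are therefore not TOP mRNAs against others. The mouse counterparts, grouped by the human windows, had medians of -0.05 for 12 genes and -0.00 for 35 in ER-Hoxa9. The start rule was chosen after values were seen, and the grouping is a description with no test.

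**Figure D5:**
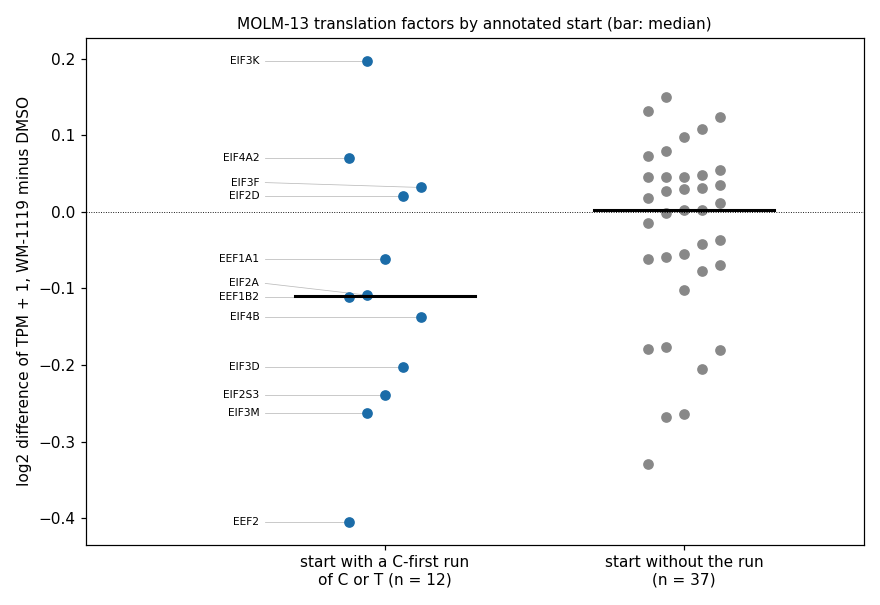
Log2 difference in MOLM-13 (WM-1119 minus DMSO, log2 of TPM + 1) of tested members with the C-first run of C or T at an annotated start (n = 12, named) and without it (n = 37), with bars at the medians. Both groups straddle 0, with medians of -0.11 and 0.00 (-0.18 and -0.06 after scaling), and EEF2 is lowest at -0.40.

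Other genes of the pathway, such as poly(A)-binding proteins, release and rescue factors and the enzymes that modify eIF5A and eEF2, gave 0 calls of 28 in each line. In MOLM-13 19 were positive and 9 negative, with a median of 0.05, close to that of all genes, and after scaling 17 were negative, with a median of -0.01. The smallest p belonged to PABPC4, a poly(A)-binding protein, with 102.2, 91.2 and 82.0 TPM in WM-1119 libraries and 128.7, 116.6 and 101.0 TPM in DMSO libraries, a log2 difference of -0.33 ± 0.18 (SE). MKNK2, an eIF4E kinase, differed by -0.19 and PPP1R15A, which directs the dephosphorylation of eIF2α, by 0.23.

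In ER-Hoxa9 13 of the 28 were positive and 15 negative, with a median of -0.00, against 0.12 over all genes, and after scaling 23 were negative, with a median of -0.15. Pelo, a ribosome rescue factor, had 15.6 and 13.8 TPM in WM-1119 libraries and 9.65 and 10.4 TPM in DMSO libraries, a log2 difference of 0.51 ± 0.13 (SE) with a limma adjusted p of 0.312. Rps6kb2, a kinase downstream of mTOR, differed by 0.29 and Paip2, an inhibitor of poly(A)-binding protein, by 0.20. The eIF4E-binding protein EIF4EBP1, left out by the rule, differed by -0.11 ± 0.27 (SE) in MOLM-13 and its mouse counterpart Eif4ebp1 by -0.18 ± 0.13 (SE) in ER-Hoxa9.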

How the data were processed

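The authors deposited 1 table per line of TPM per gene symbol, made with Salmon, and hg38 and mm10 are the builds named, per the submitters' processing notes; no version of Salmon and no annotation is given in the sources used here. TPM keep no depth, so counting errors are unknown. Samples were grouped by the labels' cell line and treatment, and 0 columns were unassigned. The mouse columns use another line name and were taken as ER-Hoxa9, the mouse line of the series. Genes averaging 1 TPM or more in a line entered a limma 3.58.1 fit (R 4.3.3, lmFit and eBayes, trend on, two-sided) on the log2(TPM + 1) scale, without a block, and adjusted over all genes tested (Benjamini-Hochberg, threshold 0.05). The fit was checked on simulated data. Human spans are GRCh38, GENCODE release 29. Figures used matplotlib 3.10.9.

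Same-numbered MOLM-13 libraries deviated together from their treatment means, with correlations across genes of 0.522, 0.438 and 0.608, all over 0.1, so the numbers were taken as pairs. What a number stands for is not given in the labels. No 2 libraries were identical.

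Named members were those called, those with the smallest p up to 10 per line, the most abundant of each role and fixed core factors; of other pathway genes, the 3 with the smallest p. EEF1B2, EEF1D, EIF1AX, EIF3D, EIF3J, EIF3K, EIF4B and EIF5B, among others outside that rule, were named after values were seen. Members and lists were chosen with earlier results of these data known. Alternatives were other pseudocounts (0.1 and 5), low-value filters, median-of-ratios scaling, removal of microRNA or ribosomal protein genes, the replicate block and each library left out.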

Additional observations from a re-analysis of the deposited data

How the results depend on the processing

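No translation factor was called in either line under any alternative run; the lowest limma adjusted p of a member was 0.112 in MOLM-13 and 0.195 in ER-Hoxa9, both with the replicate block. Signs were the same in all 16 MOLM-13 fits compared for 19 lower and 3 higher of 62 members, and in all 13 ER-Hoxa9 fits for 18 lower and 10 higher of 61. Dropping the filter or adding the replicate block to all libraries leaves each log2 difference unchanged. The scaled block likewise repeats the differences of the scaled fit. Those fits could not change a sign and add nothing to these counts. The count of all genes called lower in MOLM-13, 1 as reported, was 0 with pseudocount 5, with no filter, with a mean TPM of at least 50, with the replicate block, with the block and scaling together and with the block without the number-3 pair, and 0 to 5 when single libraries were left out; higher calls were then 0 to 1. In ER-Hoxa9, 2 genes were called in each direction. With pseudocount 5 that became 1 higher and 1 lower, with median-of-ratios scaling 1 higher, and without microRNA entries 1 higher and 0 lower. Both counts were 0 with pseudocount 0.1, with no filter, with a mean TPM of at least 5 or 50, with the replicate block alone or scaled, and without any single library. Scaling, alone or with the replicate block, gave an ER-Hoxa9 member median of -0.16 and a summed log2 ratio of -0.20, and removing ribosomal protein genes gave a summed ratio of -0.13. With single libraries left out the member median ran from -0.14 to 0.09 in MOLM-13 and from -0.10 to 0.06 in ER-Hoxa9. The ER-Hoxa9 numbers gave 2 pairs with a correlation of 0.206, too few to take as pairing, and the block there left 0 members called. Filters on a mean TPM of at least 50 and the scaled block were added after the data were seen. The cause of these shifts was not tested. TPM hold no read counts, so what depth limits is unknown, and 2 or 3 libraries per treatment limit precision.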
